A study of Mus musculus with 6 samples.

Results

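The genes described here carry out or control glycolysis, the export of lactate and the entry of pyruvate into mitochondria. They were listed by name, 36 in all. Of these, 32 were among the 18193 genes with a tested probe set that carries 1 gene symbol, and the brightest one (highest mean over the 6 arrays) stood for each gene. Gapdh was read at 3 control probe sets, since its 3 other probe sets carry several symbols, and Gpi1, Pfkfb1 and Eno1 had no probe set with their symbol in the table used. The list was chosen by the pathway of each gene and also by measured values, namely the differences between induced and uninduced cultures (Pdk4 and Pfkfb3 leaned higher) and the clone means. Both are therefore given as descriptions and not as tests of the list.

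Total RNA came from undifferentiated mouse embryonic stem (ES) cells and was hybridized to Affymetrix arrays, 1 array per culture and 6 in all. Each of the clones A3, A4 and A5 carried a human GTF2IRD2 coding sequence with a FLAG tag in the ROSA26 locus, behind a promoter that tetracycline silences, and was derived from the ES line EBRTcH3. The uninduced group of 3 cultures was kept in tetracycline (0 hours) and the induced group of 3 was sampled 24 hours after its removal, all in serum medium with leukemia inhibitory factor. Both groups therefore carried the transgene, and loss of tetracycline came with induction, so the effects of the drug and of the transgene cannot be told apart. Each clone was 1 isolate with 1 array per condition, and 0 arrays came from a line without the transgene. The values are log2 expression after robust multiarray averaging (RMA), and a difference of 1 is 2-fold.

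Glycolysis splits glucose into pyruvate in the cytosol. Phosphofructokinase is its main control point, and the Pfkfb enzymes make or remove the sugar phosphate that activates it. Pyruvate is then reduced to lactate by lactate dehydrogenase and exported with a proton by monocarboxylate carriers, or oxidised in mitochondria by the pyruvate dehydrogenase complex, which Pdk kinases switch off and Pdp phosphatases switch on. Pluripotent cells in culture are known for a high rate of glycolysis, and many genes of the pathway are known targets of hypoxia-inducible factor (HIF) and of Myc.

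Array medians ran from 5.03 to 5.07, with correlations of 0.996 to 0.998 between them across probe sets. All 8 ES cell markers examined had a mean of at least 5, and their summed signal was 15.34 to 15.45 in uninduced and 15.40 to 15.44 in induced cultures (log2). Of the markers of other cell types, 3 of 8 for fibroblasts and feeder cells, 1 of 6 for endoderm, 2 of 5 for muscle, 4 of 5 for neural cells, 2 of 3 for mesoderm, 1 of 4 for trophoblast and 0 of 2 for blood reached that mean. Eomes is on the lists of both mesoderm and trophoblast. The summed signal of the muscle markers was 7.27 to 7.39 in uninduced and 7.23 to 7.32 in induced cultures, that of the neural markers 9.07 to 9.12 and 8.96 to 9.11, and that of the fibroblast markers 7.87 to 7.99 and 7.93 to 7.95. In such bulk samples, fewer cells of a type and less RNA per cell cannot be told apart. Among the controls, poly-A spikes (bacterial RNAs put in ahead of labelling) were higher in the induced array of each clone, by 0.33, 0.09 and 0.50 in A3, A4 and A5, and averaged 6.75, 6.46 and 6.31 in A3, A4 and A5. The hybridisation spikes, added after labelling, were also higher in each clone, by 0.04, 0.01 and 0.19, and all induced arrays (10.09 to 10.23) lay above all uninduced ones (10.04 to 10.07; p = 0.1 in the exact two-sided permutation test, which cannot go lower, and 0.7 after adjustment over 7 control measures). The part of these controls in the results was not tested.

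The core of the site that HIF binds is spelled ACGTG, and the E-box that Myc and related factors bind is CACGTG, which contains that core on both strands. Promoter windows from 250 bases before to 50 bases after an annotated start (RefSeq, build GRCm38.p6) were found for 34 of the 36 genes, 53 windows in all, and Slc2a3 and Pdp1 had none. On either strand, ACGTG stood in a window of 18 of the 34 genes (52.9%), against 21.8% of 27025 genes, or in 41.5% of their windows against 19.6% of all windows. Their windows were also richer in G and C, with a median of 60.3% against 52.7%, and a gene with several starts had more chances of a match.

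The E-box itself was in windows of 6 genes (17.6%, against 8.09% of all genes), namely Ldha, Pdk2, Pfkfb2, Pfkfb3, Pfkm and Slc16a1. The other form of the HIF core, GCGTG, was in windows of 22 (64.7% against 35.2%), the GC box GGGCGG in windows of 23 (67.6% against 38.2%) and the TATA box letters TATAAA in windows of 3 (8.82% against 15.7%). These are matches of letters, and no binding was measured. The stretches below, each of 30 bases and upstream of the start, show the core or the E-box in capitals in 5 genes that are described further on. Both starts of Pfkfb3 are shown since that gene has the largest difference among those with a match. Slc2a1 and Hk2 are shown since they open the pathway, and Pgk1 and Ldha since they hold more than 1 match. Hk2 also holds a match at -226 bases from the start and Ldha one at -34, which are not printed. CACGT in capitals is the same core on the opposite strand.
Pfkfb3, chr2:11502126-11502155 (- strand): cacccttctctcCACGTGaaagggggctgg
Pfkfb3, other start, chr2:11553972-11554001 (- strand): ctccgcgccgtgACGTGccaagctgtgacc
Slc2a1, chr4:119108697-119108726 (+ strand): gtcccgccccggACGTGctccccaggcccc
Hk2, chr6:82774489-82774518 (- strand): aatgagcacatcCACGTcactgtccggggc
Pgk1, chrX:106186938-106186967 (+ strand): gcgtcgtgcaggACGTGacaaatggaagta
Pgk1, second match, chrX:106186957-106186986 (+ strand): aaatggaagtagCACGTctcactagtctcg
Ldha, chr7:46845647-46845676 (+ strand): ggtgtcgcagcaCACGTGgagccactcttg
Ldha, nearer the start, chr7:46845744-46845773 (+ strand): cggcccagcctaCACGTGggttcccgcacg
The windows of Pdk4, Eno3, Pdk1 and Tpi1 held no ACGTG, which says only that these letters are not in them. Pdk4, Eno3 and Pdk1 did hold the other form of the core, GCGTG, and Tpi1 held neither.

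**Figure D1:**
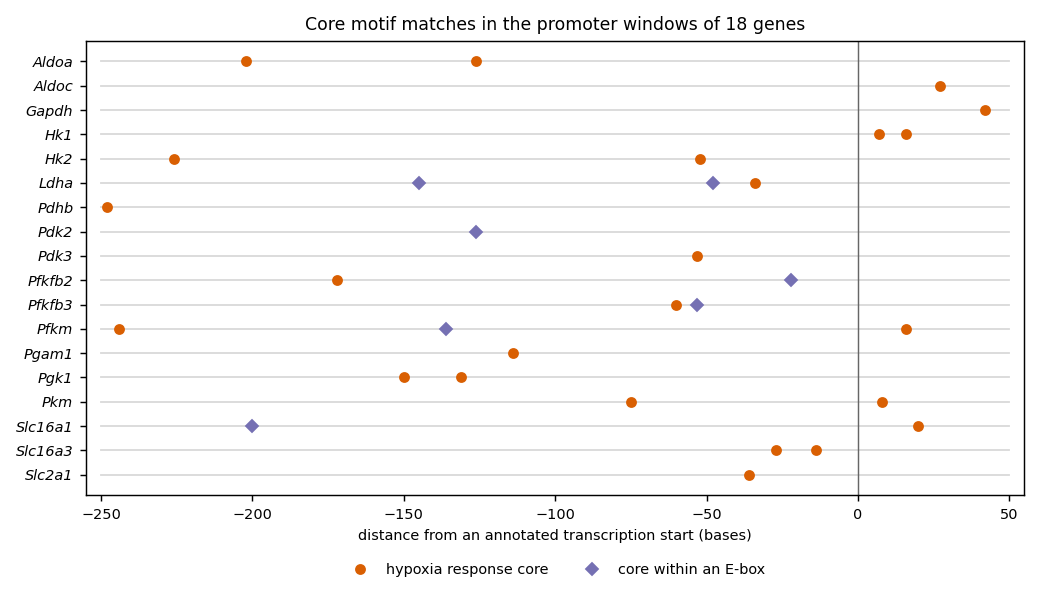
Position of each ACGTG match (x axis, bases from an annotated start; circles for the core alone, diamonds for the core within the E-box CACGTG) in the promoter windows of 18 genes (y axis). A site seen from 2 annotated starts is drawn at both distances, as for Aldoa. Of 31 matches drawn, 24 lie upstream of the start and 7 are within an E-box.

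With induction, the genes of the pathway differed little and not in 1 direction. The largest differences were those of Pdk4, at 0.41, Pfkfb3, at 0.26, and Aldoc, at 0.24, and the lowest was that of Pfkfb4, at -0.14. In limma 0 of the 32 genes passed an adjusted p under 0.05 over all 45037 probe sets tested, as did 0% of all probe sets, and 0 passed with the clone as a block or in the methods' t-test. At an unadjusted p under 0.05 limma had 1 of 32 genes, Pfkfb3, beside 2.36% of all genes. With the replicate block there were 3 (Pfkfb3, Aldoc and Pdk4), beside 4.7% of all genes, and in the methods' t-test 3 (Pfkfb3, Pdk3 and Pdp1), beside 3.43%. Since the list was chosen with these differences known, nothing is read from the counts. Such p-values cover no more than the spread among 3 clones of 1 parent line.

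The median difference over the 32 genes was 0.03, against -0.00278 over all genes and 0.000339 over genes whose mean reached 5, as it did in 30 of the 32. Of the 32, 20 had a mean difference above 0 (62.5%, beside 48.5% of all genes). In all 3 clones 11 were higher (34.4%, beside 12.9%) and 5 were lower (15.6%, beside 13.3%). The medians were 0.03, 0.01 and 0.05 in A3, A4 and A5, and without the uninduced A5 array the median of the 32 was 0.00114. The 95% interval of the difference had a median half-width of 0.19 on the log2 scale, against 0.20 over all genes. For each of the 32 genes it lay within 2-fold in either direction, as it did for 18160 of all 18193 genes. Unless stated, SEs and intervals here and below are from the comparison without the replicate block, so they contain the gaps between clones.

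**Figure D2:**
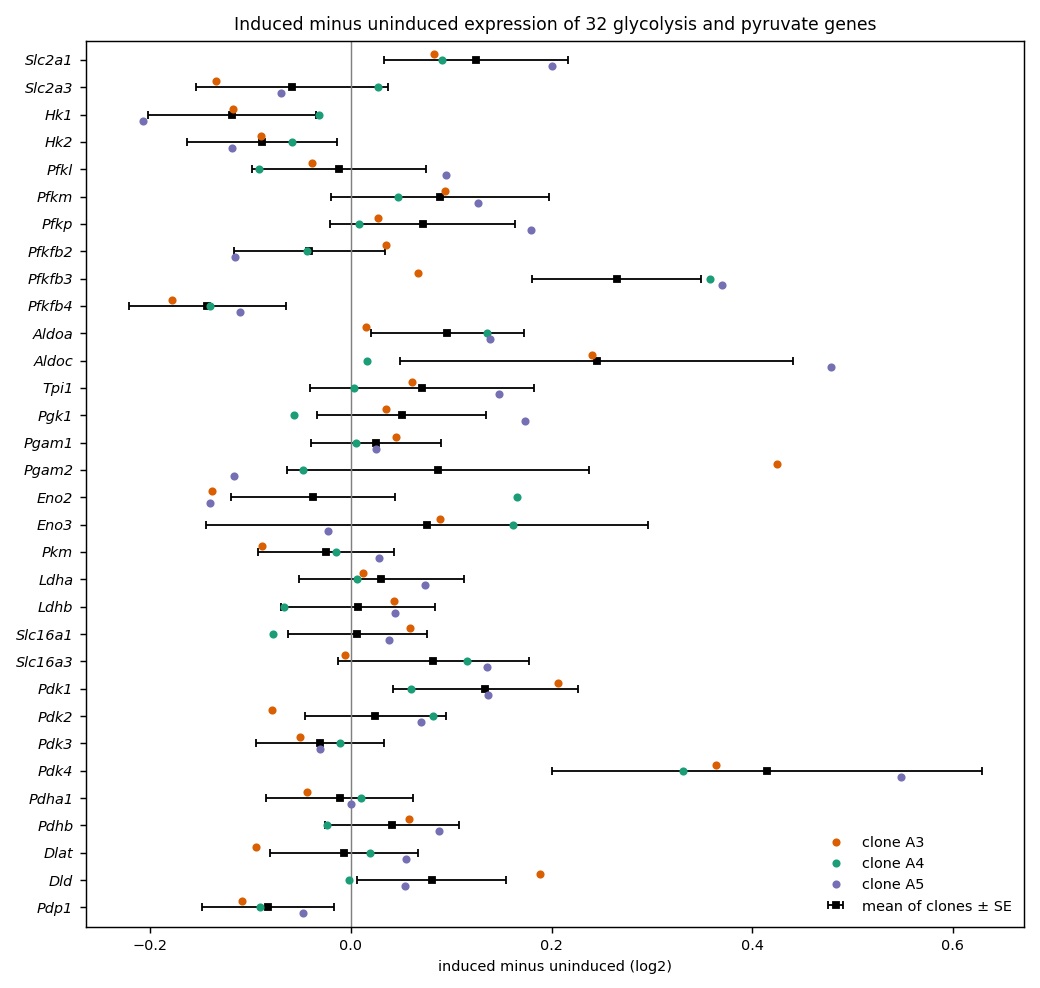
Difference between induced and uninduced cultures (log2, x axis) of the 32 genes with a tested probe set (y axis, in pathway order), as the value of each clone (circles) and the mean of the clones with its SE in the comparison without the replicate block (squares). Pdk4 at 0.41 and Pfkfb3 at 0.26 lie farthest to the right, and Pfkfb4 at -0.14 farthest to the left.

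Glucose enters these cells through carriers of the Slc2a family. Slc2a1, the carrier GLUT1 found in most cells, had 12.07, 12.29 and 12.15 in A3, A4 and A5 when uninduced, and 12.15, 12.38 and 12.35 when induced. Each clone was higher when induced, by 0.08, 0.09 and 0.20, yet the groups overlapped, since the induced A3 array lay below the uninduced A4 array. The means were 12.17 ± 0.11 and 12.29 ± 0.12 (SD, n = 3), a difference of 0.12 ± 0.09 (SE). Its 3 probe sets spanned -0.01 to 0.12.

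Slc2a3, the high-affinity carrier GLUT3 of embryos and neurons, had 12.41, 12.52 and 12.61 in uninduced and 12.28, 12.55 and 12.54 in induced A3, A4 and A5, a difference of -0.06 ± 0.10. Its 4 probe sets did not give the same picture. The brightest has probes that may also bind other transcripts, as its suffix _s_at marks, and differed by -0.13, 0.03 and -0.07 in the clones. The next brightest, with a mean of 11.48, differed by -0.16, 0.05 and 0.09 in A3, A4 and A5. At a dimmer one with a mean of 9.10, the clones differed by 0.27, -0.39 and 0.51, and at another, with a mean of 8.55, by 0.32, -0.44 and 0.63. The induced array was thus lower in A4 and higher in A3 and A5 at these dimmer probe sets, which differed by 0.13 ± 0.24 and 0.17 ± 0.27 on average.

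Hexokinase traps glucose in the cell as glucose 6-phosphate. Hk2, the inducible form, had 10.66, 10.52 and 10.66 in uninduced and 10.57, 10.46 and 10.54 in induced A3, A4 and A5. Every clone was lower when induced, by 0.06 to 0.12 in size, while the groups overlapped because the uninduced A4 array lay below the induced A3 and A5 arrays. The difference was -0.09 ± 0.07. Hk1, the form of most tissues, lay between 8.03 and 8.34 over the arrays and differed by -0.12 ± 0.08, with -0.12, -0.03 and -0.21 in A3, A4 and A5. At its other probe set, with a mean of 7.29, A5 went the other way, at 0.22. Glucose entry therefore held a carrier that was higher and 2 hexokinases that were lower in all 3 clones, and each 95% interval held 0 (-0.08 to 0.33 for Slc2a1, -0.31 to 0.07 for Hk1 and -0.26 to 0.08 for Hk2).

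Phosphofructokinase is assembled from liver, muscle and platelet subunits, and all 3 genes were measured. Pfkl, the liver form, lay between 10.48 and 10.73 and differed by -0.01 ± 0.09. Pfkm, the muscle form, lay between 7.86 and 8.28 and was higher in each induced clone, by 0.09, 0.05 and 0.13. Pfkp, the platelet form, had 10.20, 10.36 and 10.06 in uninduced and 10.23, 10.37 and 10.24 in induced A3, A4 and A5. Only in A5 was its difference over 0.03, at 0.18. The 3 probe sets of Pfkp did not share a sign, with mean differences of 0.07, 0.23 and -0.14 from the brightest to the dimmest, and in A3 they gave 0.03, 0.30 and -0.43.

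The Pfkfb genes encode the enzymes with kinase and phosphatase activity that set the activator of phosphofructokinase. Pfkfb3, the form with the strongest kinase bias and a known HIF target, had 5.39, 5.33 and 5.23 in A3, A4 and A5 when uninduced, and 5.46, 5.68 and 5.60 when induced. All induced arrays lay above all uninduced ones, which held for 1 of 32 genes (3.12%) and for 3.16% of all genes. The means were 5.32 ± 0.08 and 5.58 ± 0.11 (SD, n = 3), and the difference was 0.26 ± 0.08 or 1.2-fold. It came from A4 and A5, at 0.36 and 0.37, and was 0.07 in A3. The other probe set of Pfkfb3, with a mean of 4.77, gave 0.27, -0.12 and 0.11 in A3, A4 and A5. The 2 probe sets thus ranked the clones in different orders, and the mean over both probe sets differed by 0.17. Both have a low signal, since even the brightest had a mean of 5.45, beside array medians of 5.03 to 5.07.

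Pfkfb4, another HIF-responsive form with high expression in testis, was lower in each clone. It had 6.25, 6.29 and 6.12 in uninduced and 6.07, 6.15 and 6.01 in induced A3, A4 and A5. The clones differed by -0.18, -0.14 and -0.11, but the groups overlapped because the uninduced A5 array lay below the induced A4 array. The mean difference was -0.14 ± 0.08. Pfkfb2, the heart form, lay between 5.27 and 5.47 and differed by -0.04 ± 0.08, while its 3 other probe sets, of which 2 have a mean under 5, gave 0.04 to 0.24. At their brightest probe sets, Pfkfb3 was thus higher and Pfkfb4 lower in all 3 clones. Since Pfkfb3 was listed for leaning higher, nothing is read from this contrast.

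The aldolases split the 6-carbon sugar. Aldoa, the muscle and general form, had 12.83, 12.66 and 12.65 in uninduced and 12.85, 12.80 and 12.79 in induced A3, A4 and A5. The difference was 0.01 in A3 and 0.14 in both A4 and A5, and all 5 of its probe sets had a mean difference above 0 (0.04 to 0.11). Probe sets of Aldoa carry the suffix _x_at, which marks probes that may bind other transcripts. Aldoc, the form of brain and a HIF target, had 7.87, 8.48 and 7.69 in uninduced and 8.11, 8.50 and 8.17 in induced cultures. A4 was high in both conditions and hardly differed, at 0.02, whereas A3 differed by 0.24 and A5 by 0.48. The mean difference was 0.24 ± 0.20, an SE that contains the gap between clones, and ± 0.09 with the replicate block. With 1 array left out it ran from 0.08 (without uninduced A5) to 0.48 (without uninduced A4), and it was 0.12 without induced A4. Without both A5 arrays it was 0.13. The other Aldoc probe set was dim, with a mean of 2.60, and gave -0.07.

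Tpi1, which interconverts the triose phosphates, had 12.25, 12.15 and 11.88 in uninduced and 12.31, 12.15 and 12.03 in induced A3, A4 and A5. It was higher by 0.06, 0.00 and 0.15, and its 3 probe sets gave 0.07 to 0.16. Gapdh, the dehydrogenase that follows, was read at 3 control probe sets along the transcript. They lay between 13.68 and 13.83 in all 6 arrays, near the top of the range of values (14.19), and differed by 0.00 at the 3' end, -0.01 in the middle and 0.02 at the 5' end. The 3' minus 5' signal of Gapdh, a measure of RNA quality, was 0.03 to 0.12. Its groups differed by -0.02 (exact two-sided permutation p = 0.4, where 0.1 is the smallest possible with 3 against 3; adjusted p = 0.7 over 7 control measures).

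Pgk1, which makes the first ATP of the pathway and is X-linked, had 12.78, 12.96 and 12.71 in uninduced and 12.81, 12.91 and 12.89 in induced A3, A4 and A5. A5 was higher by 0.17 and A4 lower by 0.06 in size, and the mean difference was 0.05 ± 0.08. Pgam1, the general mutase, stayed within 12.60 to 12.67 over the 6 arrays and differed by 0.03 ± 0.06. Pgam2, the muscle mutase, lay between 5.87 and 6.50 and differed by 0.42, -0.05 and -0.12 in A3, A4 and A5, so its mean of 0.09 ± 0.15 rests on A3. The enolases that could be read were the muscle form Eno3, between 8.84 and 9.67 with a difference of 0.08 ± 0.22, and the neuronal form Eno2, which was dim at 3.74 to 3.93 and differed by -0.04 ± 0.08. Pkm, pyruvate kinase of non-liver tissues, closed the pathway with 13.10, 13.01 and 13.00 in uninduced and 13.02, 12.99 and 13.02 in induced cultures. Its difference was -0.03 ± 0.07, and its splice forms were not examined.

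Over the carriers and enzymes from glucose to pyruvate, 10 of 16 genes had a mean difference above 0 (beside 48.5% of all genes), with a median of 0.06. The highest was Aldoc at 0.24 and the lowest Hk1 at -0.12. In the induced arrays 7 of the 16 were higher and 2 lower in all 3 clones, beside 12.9% and 13.3% of all genes. Of the 7, Pfkp, Aldoc, Tpi1 and Pgam1 differed by no more than 0.02 in A4. The list was chosen with these differences known, so nothing is read from these counts. The difference was larger in A5 than in A4 in 10 of the 16 and smaller in 6, namely Slc2a3, Hk1, Hk2, Pgam2, Eno2 and Eno3. A5 also had the largest difference in poly-A spikes, whose part in these values was not tested.

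**Figure D3:**
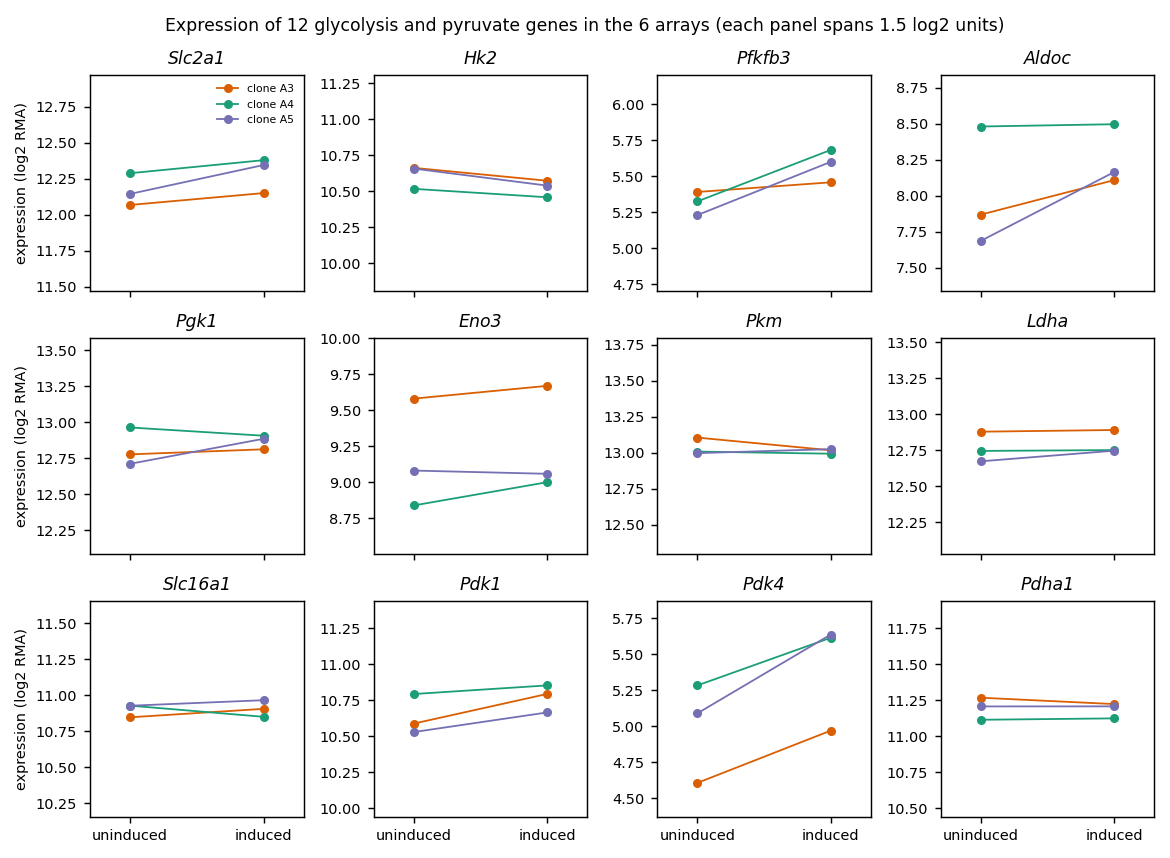
Expression (log2 RMA, y axis) of 12 genes of the pathway in uninduced and induced cultures (x axis), with 1 line per clone. Each panel spans 1.5 log2 units. The lines of Pdk4 end higher in all 3 clones, going from 4.61 to 4.97 in A3, 5.28 to 5.61 in A4 and 5.09 to 5.64 in A5, whereas those of Ldha, Pkm and Pdha1 are close to level.

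The genes of lactate formation and export differed by at most 0.08. Ldha, the form that favours lactate and a HIF and Myc target, had 12.88, 12.74 and 12.67 in uninduced and 12.89, 12.75 and 12.75 in induced A3, A4 and A5. The difference was 0.03 ± 0.08, with an interval of -0.16 to 0.22. Ldhb, the form that favours pyruvate, lay between 10.52 and 10.72 and differed by 0.01 ± 0.08, and its 4 probe sets gave 0.01 to 0.07. Slc16a1, the general monocarboxylate carrier MCT1, had 10.85, 10.93 and 10.93 in uninduced and 10.91, 10.85 and 10.97 in induced cultures, a difference of 0.01 ± 0.07. Slc16a3, the lactate exporter MCT4 of glycolytic cells and a HIF target, lay between 7.56 and 7.92, and its clones differed by -0.01, 0.12 and 0.14. All 4 genes of this step had a mean difference above 0 (beside 48.5% of all genes), at 0.01 to 0.08. Ldha was the one with a single sign in all 3 clones.

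The Pdk kinases phosphorylate and inhibit the pyruvate dehydrogenase complex. Pdk4, the form that fasting and fatty acids raise in muscle, heart and liver, had 4.61, 5.28 and 5.09 in A3, A4 and A5 when uninduced, and 4.97, 5.61 and 5.64 when induced. Every clone was higher when induced, but the groups overlapped: the induced A3 array lay below the uninduced A4 and A5 arrays. The means were 4.99 ± 0.35 and 5.41 ± 0.38 (SD, n = 3), and the difference was 0.41 ± 0.21 (SE) or 1.33-fold, with an interval of -0.08 to 0.90. The clones' own differences were 0.36, 0.33 and 0.55, so they were closer to each other than the levels from which they started. With the replicate block the SE was 0.07, and limma's p was 0.00052 unadjusted and 0.84 adjusted over all probe sets. Pdk4 was listed for leaning higher, so this p is no test of it. Over the alternatives tried, the mean difference of Pdk4 stayed between 0.22 (without uninduced A3) and 0.63 (without induced A3). The gene has 1 probe set, whose signal is low.

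Pdk1, the form that HIF raises in low oxygen, had 10.59, 10.79 and 10.53 in uninduced and 10.79, 10.85 and 10.67 in induced A3, A4 and A5. It was higher by 0.21, 0.06 and 0.14, with overlap between the groups and a mean difference of 0.13 ± 0.09. Its 2 other bright probe sets gave 0.09 each, and a dim one gave -0.05. Pdk3, which is X-linked, was the steadiest kinase, at 9.18, 9.15 and 9.18 in uninduced and 9.13, 9.14 and 9.15 in induced cultures. The groups did not overlap, yet the difference was -0.03 ± 0.06. Pdk2, the most widely expressed form in adult tissue, was dim here, at 4.11 to 4.25, and differed by 0.02 ± 0.07. Induced arrays lay all below uninduced ones for 2 genes, Pdk3 and Pdp1 (6.25%, beside 4.07% of all genes).

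Pdp1, the phosphatase that reactivates the complex, had 6.07, 6.12 and 6.05 in uninduced and 5.96, 6.03 and 6.01 in induced A3, A4 and A5. All clones were lower, by 0.05 to 0.11 in size, and the mean difference was -0.08 ± 0.07. Its second probe set, with a mean of 3.64, gave 0.46, -0.06 and -0.04 in A3, A4 and A5. The subunits of the complex itself differed by no more than 0.08: Pdha1, the X-linked E1 alpha subunit, had 11.27, 11.12 and 11.21 in uninduced and 11.22, 11.13 and 11.21 in induced cultures, a difference of -0.01 ± 0.07. Pdhb, the E1 beta subunit, differed by 0.04 ± 0.07, Dlat, the E2 acetyltransferase, by -0.01 ± 0.07 and Dld, the E3 dehydrogenase shared with other complexes, by 0.08 ± 0.07, of which A3 had 0.19. Around the complex, the brightest probe sets of the kinase genes Pdk4 and Pdk1 were higher in all 3 clones. Those of Pdk3 and the phosphatase gene Pdp1 were lower in all 3, and the subunits had no single sign. Since Pdk4 was listed for leaning higher, nothing is read from this contrast.

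The brightest probe set does not decide every sign. Of the 32 genes, 19 had more than 1 probe set, and in 10 of these the mean differences did not share a sign. In Aldoa, Tpi1, Pgk1 and Ldhb, with 3 to 5 probe sets each, all mean differences were above 0. With the mean of a gene's probe sets in place of the brightest, the median over the 32 genes was 0.05.

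**Figure D4:**
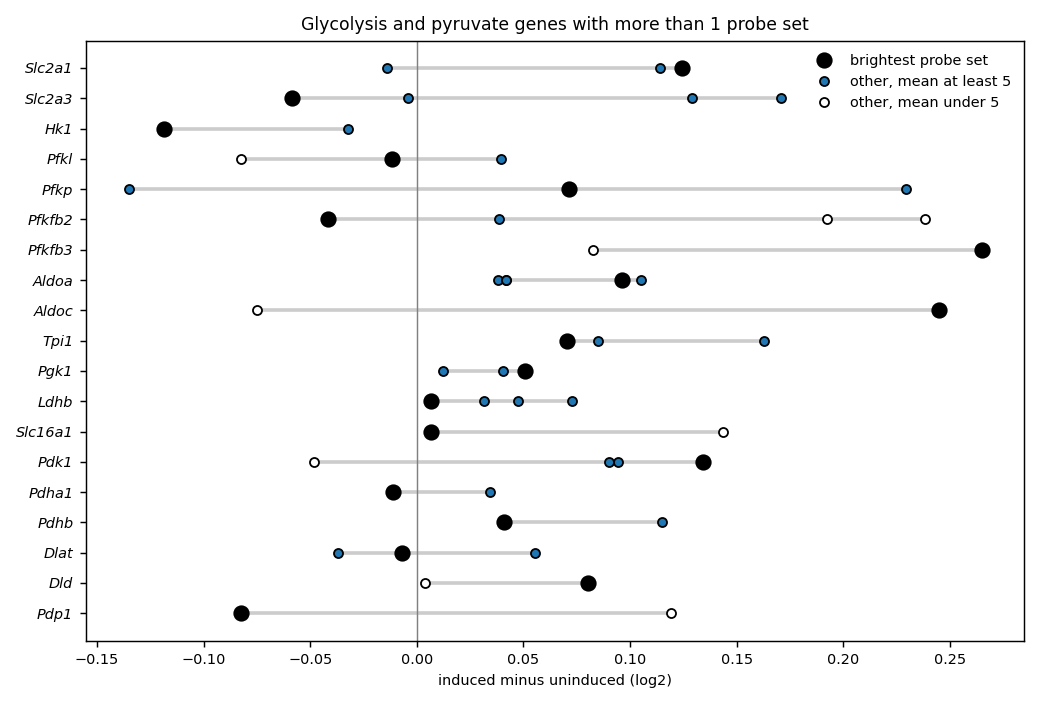
Difference between induced and uninduced cultures (log2, x axis) at each probe set of the 19 genes with more than 1 (y axis). Large black circles are the probe sets that stand for a gene, blue circles the others with a mean of at least 5 and open circles those below it. Pfkp spans -0.14 to 0.23, whereas Pgk1 spans 0.01 to 0.05.

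The range of the clone means was larger than the size of the mean difference on induction in 29 of the 32 genes. Pfkfb3, Pdk3 and Pdp1 were the other 3. A range of 3 means tends to exceed a difference between 2 means, so nothing is read from this count. The median range and median size of difference were 0.14 and 0.07 over the 32 genes, and 0.15 and 0.05 over all genes. Eno3, the muscle enolase, had clone means of 9.63, 8.92 and 9.07 in A3, A4 and A5 (log2, 2 arrays each), a range of 0.71 or 1.63-fold. Both A3 arrays, at 9.58 and 9.67, lay above the other 4, which reached 9.08. Pdk4 was the opposite, with means of 4.79, 5.45 and 5.36 in A3, A4 and A5, a range of 0.66 or 1.58-fold, and both A3 arrays lay below the other 4. These 2 of 32 genes (6.25%) passed limma's F-test of the clone term at an adjusted p under 0.05 over all probe sets, beside 3.09% of all genes and 4.23% of genes with a mean of at least 5. Clone means were known when the list was made, so these calls describe the genes and support nothing further. Both calls rest on A3: 0 of 32 passed without its uninduced array, without its induced array or without both, and Eno3 alone passed when the induction term was left out.

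Aldoc, with 7.99, 8.49 and 7.93 in A3, A4 and A5, had the next largest range, 0.56, and did not pass on all arrays. It passed with the intensity trend, with the filter on mean intensity, without the induced A5 array and without both A5 arrays. Pgam2 (6.29, 6.24 and 5.93), Tpi1 (12.28, 12.15 and 11.96) and Pfkm (8.24, 8.08 and 7.92) followed with ranges of 0.36, 0.32 and 0.31, and each had its lowest mean in A5. The summed muscle markers were 7.29 and 7.23 in A3, within 7.23 to 7.39 over all arrays. Other marker sums were lower in both A3 arrays than in the other 4: those of trophoblast were 7.00 and 6.89 in A3 against 7.30 to 7.62, those of mesoderm 7.19 and 7.15 against 7.44 to 7.72, and those of endoderm 7.37 and 7.16 against 7.40 to 7.55. Eomes was counted in both the trophoblast and the mesoderm sum, so those sums are not separate signals. The part of these marker sums in the clone values of Eno3 and Pdk4 was not tested.

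At the other end, Pdk3, Eno2 and Pgam1 had ranges of 0.02, 0.04 and 0.04, and Pkm, Pdhb and Pdp1 ranges of 0.05 to 0.06. The median range over the 32 genes was 0.14, against 0.15 over all genes, and 6 of 32 ranged over at least 0.3 (18.8%, beside 13.7% of all genes). A5 had the lowest mean in 15 of the 32 genes (46.9%, beside 25.6% of all genes) and A3 in 8 (25%, beside 41%). The X-linked genes Pgk1, Pdha1 and Pdk3 ranged over 0.14, 0.13 and 0.02. On chromosome 6, which carries 7 of the 36 genes, Pdk4 had its lowest and Tpi1 its highest mean in A3.

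**Figure D5:**
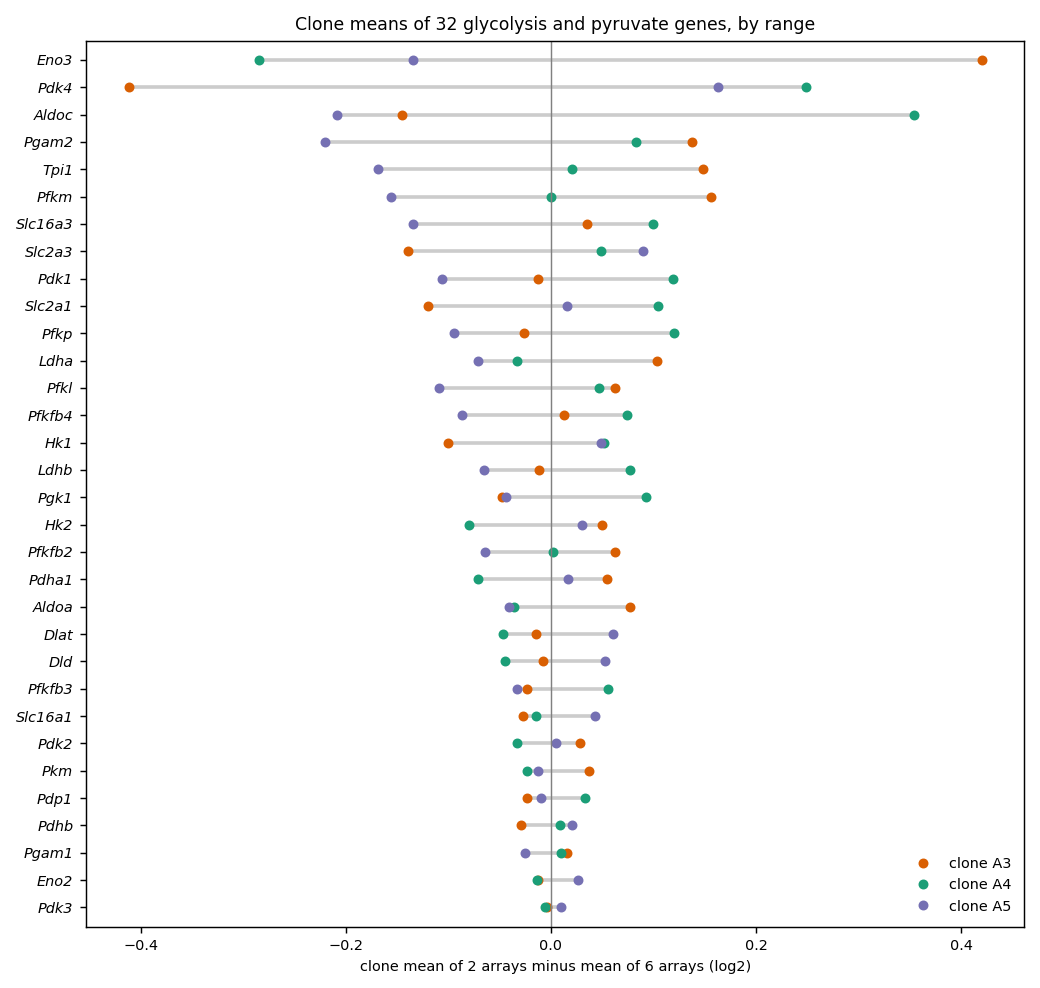
Mean of the 2 arrays of each clone minus the mean of all 6 arrays (log2, x axis) for the 32 genes (y axis), ordered by the range of the clone means. Eno3 and Pdk4, with ranges of 0.71 and 0.66, are set apart by A3 in opposite directions, and Pdk3 at the bottom has a range of 0.02.

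Genes beside the pathway were examined as lists: other carriers, kinases and isozymes, pyruvate metabolism, gluconeogenesis, the pentose phosphate pathway, and glycogen and galactose metabolism. Of 77 such genes 70 were measured, and 31 had a mean difference above 0, with a median of -0.01. In limma 0 of the 70 passed on induction, with or without the replicate block. At an unadjusted p under 0.05 there were 0 without the block and 1 with it, Pygb (1.43%, beside 4.7% of all genes). The largest differences were those of Slc2a12, a glucose carrier (-0.21 ± 0.13, with -0.60 in A3, at a dim probe set), Pygb, brain glycogen phosphorylase (0.18 ± 0.08, higher in all 3 clones), and Pgm1, a phosphoglucomutase (0.17 ± 0.14). Rpe, the epimerase of the pentose phosphate pathway, was the 1 gene that passed the clone term, with 10.78, 9.83 and 9.88 in A3, A4 and A5.

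Among pyruvate carriers and neighbours of the complex, Mpc1, a subunit of the mitochondrial pyruvate carrier, differed by -0.05 ± 0.11, Bsg, the chaperone of MCT1 and MCT4, by 0.01 ± 0.07 and Pdhx, the E3-binding subunit, by 0.02 ± 0.07. Pcx, pyruvate carboxylase, differed by -0.15 ± 0.08, with -0.25, 0.04 and -0.26 in A3, A4 and A5.

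Of 31 regulators of these genes 30 were measured, 17 had a mean difference above 0 and 0 passed on induction, with or without the replicate block. Hif1a, the oxygen-regulated subunit of HIF, differed by 0.03 ± 0.07 and Mycn, the main Myc family gene of ES cells, by 0.03 ± 0.07. The largest differences were those of the HIF prolyl hydroxylases Egln3 (0.34 ± 0.29) and Egln1 (0.21 ± 0.15) and of the RNA-binding protein gene Lin28a (-0.20 ± 0.16). Both Egln genes were higher in all 3 clones, Egln3 by 0.25, 0.22 and 0.55 and Egln1 by 0.19, 0.36 and 0.10, whereas Lin28a was lower in A3 and A5 and at 0.01 in A4. These 3 of 30 regulators (10%, beside 4.7% of all genes) had an unadjusted p under 0.05 with the block, and 0 had one without it. Egln3 also passed the clone term, with 7.86, 8.84 and 8.27 in A3, A4 and A5. Of 20 HIF targets outside glycolysis, Egln3 among them, 17 were measured and 0 passed on induction. They had a median of 0.08 and 14 above 0, beside 0.06 and 10 of 16 for the carriers and enzymes from glucose to pyruvate. Over all genes the median was -0.00278 and 48.5% were above 0. At an unadjusted p under 0.05 there was 1 of 17 without the block, beside 2.36% of all genes. With the block there were 6 (35.3%, beside 4.7% of all genes), namely Adm, Ankrd37, Bnip3, Egln3, Ndrg1 and P4ha1. The list was chosen with earlier results of these data known, so nothing is read from these counts. Of these targets, 4 passed the clone term (23.5%, beside 3.09% of all genes), and the part of clone differences in the values was not tested.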

How the data were processed

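The authors deposited log2 values, 1 per probe set of the Affymetrix Mouse Genome 430_2 array, made with RMA in affy, a Bioconductor package; versions and a genome build are not given in the sources used here, nor is which arrays were normalized together. Quantile normalization removes shifts shared by all genes. Of 45101 probe sets, 64 controls were set apart and 45037 were tested, of which 34945 carry 1 symbol, 932 several and 9160 none in the platform's table.

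Groups came from the labels. Arrays were compared with limma 3.58.1 (lmFit, eBayes, two-sided) in R 4.3.3 without a block, as the methods name none, and clones with its F-test beside an induction term, with Benjamini-Hochberg adjustment over all probe sets. Alternatives were the replicate block, an intensity trend, a mean of at least 5, array medians subtracted, the methods' t-test, the mean of probe sets, and arrays or clones left out. The labels give the clone of each array. Deviations from the group means correlated within a clone at 0.524 (A3), 0.376 (A4) and 0.210 (A5), and between clones at -0.407 to 0.0689, so the clones pair the arrays. Probes differ in affinity, so levels of different probe sets were not tested against each other. They served to choose the brightest probe set, apply the mean of at least 5, sum markers and call a signal low or high. Precision is set by the number of arrays. The pipeline was tested on simulated data. The genes, lists and tests were chosen with earlier results of these data known. Values in every array were given by rule for Pdk4 and Pfkfb3, genes with 1 sign, a mean of at least 5 and a difference of at least 0.15, genes called between clones and a main gene of each step, and other values were named after they were seen. Promoter windows and chromosomes are RefSeq's, build GRCm38.p6, matched by symbol.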

Additional observations from a re-analysis of the deposited data

Results flagged for a closer look

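Slc2a3 responded in opposite directions in different clones at 2 of its 4 probe sets, by at least 0.3 on the log2 scale in both clones, a limit set after the data were seen. At the probe set with a mean of 9.10, the response of A5 exceeded that of A4 by 0.90 (0.901). At the one with a mean of 8.55, the response of A5 exceeded that of A4 by 1.07 (1.074), and that of A4 minus that of A3 was -0.76 (-0.7606). Each clone has 1 array per condition, so this difference between clones was not tested, and the 2 brightest Slc2a3 probe sets did not show it.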

How the results depend on the processing

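On induction 0 probe sets and 0 of the 32 genes were called in the main comparison and in all alternatives run, the replicate block included. The median of the 32 genes was 0.0278. The block cannot change it, since each clone has 1 array per condition. With 1 array left out that median ran from 0.00114 to 0.0340. Of the 15 genes followed through the alternatives, 7 kept 1 sign of difference in all of them, among them Pdk4, Pfkfb3 and Aldoc. The block, the intensity trend and the filter on mean intensity cannot change a gene's difference, so its sign was fixed there. Pdk4 and Pfkfb3 were also listed for leaning higher, so their kept sign supports nothing further. The clone term was less stable. Of all probe sets it called 980, against 2641 with an intensity trend, 1885 among probe sets whose mean reached 5, 248 to 860 with 1 array left out and 26 without both arrays of clone A3. Of the 32 genes it called 2, against 6 with an intensity trend (Slc2a1, Slc2a3, Aldoc, Tpi1, Eno3 and Pdk4), 1 without the induction term, 0 to 3 with 1 array left out and 0 without both arrays of clone A3. A clone left with 1 array was assumed to vary like the others. The cause was not tested. Genes with low signal, such as Eno2, Pdk2, Pdk4, Pfkfb2 and Pfkfb3, are limited by background.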
